A study of Mus musculus with 18 samples.

Results

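The effect of added lamin C in hearts labelled as Lmna knockdown was set against the effect of added lamin A in the same setting, across all genes. The quantity described throughout is the lamin difference: the log2 fold change from Lmna shRNA to Lmna shRNA+Lamin C in batch LC, minus the log2 fold change from Lmna shRNA to Lmna shRNA+Lamin A in batch LA. It rests on 12 libraries, 3 in each of 4 groups, chosen by their labels out of 18 in the series. The other 6 are control hearts, 3 per batch, and are given beside the results as background. All libraries were made from polyadenylated RNA of the heart apex of mice labelled WT. The labels give no age, strain or sex. The hairpin construct carries the name L881, and the design text names rAAV9, an adeno-associated virus that reaches heart muscle, as the delivery platform. What the control hearts received, whether the lamin groups differ from the shRNA groups in total vector dose, and whether the added lamin is of mouse or human sequence are not given in the sources used here. Lamin C was given only in batch LC and lamin A only in batch LA, so lamin type and batch cannot be told apart in any value below. Nothing in the labels says whether the 3 libraries of a group are separate animals, so p-values measure the spread between these libraries.

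Lamins A and C are intermediate filament proteins made from the gene Lmna by alternative splicing, and they line the inner face of the nuclear envelope. Lamin A is made as a longer precursor, prelamin A, whose tail is farnesylated and then cut off by the protease Zmpste24. Lamin C ends earlier and lacks that tail. Loss or mutation of Lmna is a known cause of dilated cardiomyopathy, in which the heart widens, conducts poorly, scars and returns to a fetal pattern of gene use.

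The coding sequences of both proteins are printed at the point where they part, because the 2 treatments are named for these proteins. The species of the added lamins is not given, so the mouse bases shown need not be those delivered. In the mouse annotation (GENCODE M21, build GRCm38, minus strand of chromosome 3), the lamin A transcript codes for 665 residues in 1998 bases with the stop codon. The lamin C transcript codes for 574 residues in 1725 bases. Their first 1705 coding bases are identical, which is 85.3% of the lamin A and 98.8% of the lamin C coding sequence. Lower case marks the last 24 shared bases and capitals the first 20 bases that each transcript has to itself. Lamin A has 293 such coding bases and lamin C 20, so most of the lamin A tail is not shown. The lamin A line crosses an intron, and the lamin C line runs on without one and ends at its stop codon.
Lamin A, between chr3:88482592-88483340: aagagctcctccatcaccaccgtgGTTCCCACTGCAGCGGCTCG
Lamin C, chr3:88483297-88483340: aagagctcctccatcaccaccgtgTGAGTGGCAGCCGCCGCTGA

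Lmna itself (ENSMUSG00000028063, chromosome 3, 88480147 to 88509956 on mm10) was read first, as the targeted gene. In CPM (counts scaled to a common, normalised library size), control hearts held 122, 128 and 120 in batch LC and 120, 120 and 112 in batch LA. Hearts labelled shRNA held 137, 134 and 115 in batch LC and 127, 122 and 130 in batch LA. The 2 groups overlapped in batch LC, and in batch LA every shRNA-labelled library lay above every control. The bulk Lmna count thus goes against the shRNA label, and the groups are called shRNA-labelled hearts below. A count per gene does not separate native from vector RNA, or heart muscle cells from other cells of the tissue. Whether Lmna fell in heart muscle cells cannot be read from it. With lamin C, Lmna stood at 1317, 1064 and 1375 CPM, and with lamin A at 556, 537 and 501 CPM. Every lamin C library lay above every lamin A library. The log2 lamin C effect on Lmna was 3.29 ± 0.09, the lamin A effect 2.07 ± 0.08, and the difference 1.21 ± 0.12 (adjusted p = 3.6e-06), by edgeR's quasi-likelihood test with Benjamini-Hochberg adjustment, as for every adjusted p below (± is 1 SE, n = 3 libraries per group). Lmna transcript level therefore differed between the lamin groups together with lamin type and batch, and the 3 cannot be told apart.

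**Figure D1:**
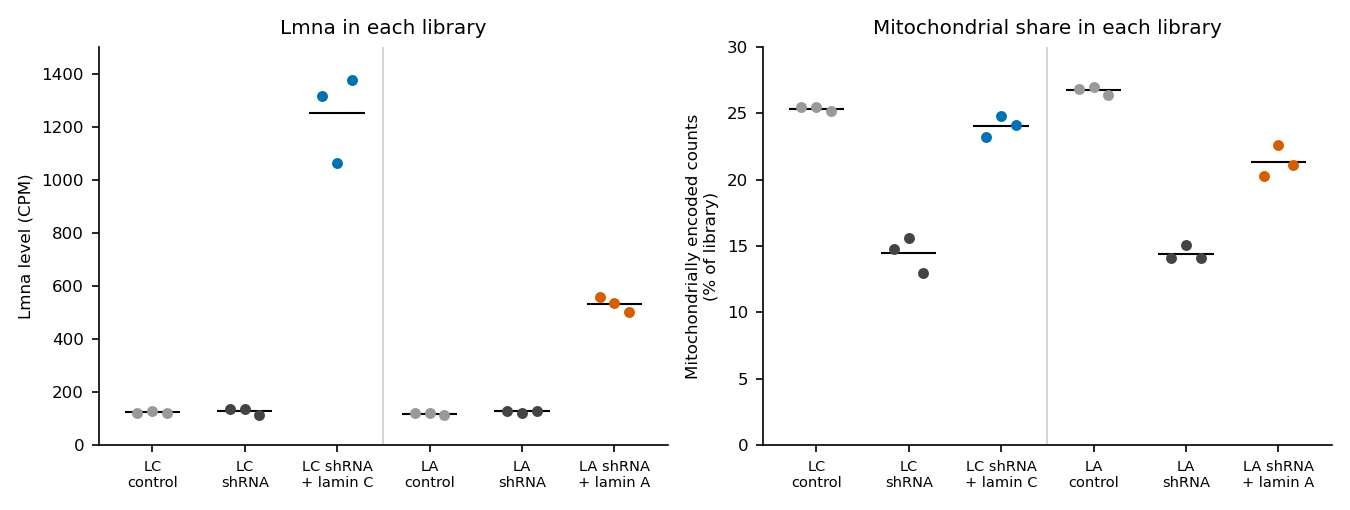
Left, Lmna level in CPM in each of 18 libraries; right, the percent of each library's counts that came from mitochondrially encoded genes. Points are libraries, lines are means of 3. Lmna reached 1064 to 1375 CPM with lamin C and 501 to 556 CPM with lamin A, and the mitochondrial share of both shRNA-labelled groups averaged 14.4%.

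Libraries held 31418657 to 41259968 counts, and 17876 of 54532 genes had enough counts to be tested. Without added lamin, the shRNA-labelled hearts of the 2 batches differed in 188 genes (1.05% of those tested). They are separate libraries from the lamin hearts, so values said to go, rise or fall with a lamin compare groups. Clock genes drive daily rhythms of transcription. Of 17 tested clock genes, 9 were higher and 2 lower in batch LC than in batch LA (0.531% and 0.52% of all tested genes), with a log2 difference of 2.48 ± 0.43 (adjusted p = 0.00703) for Per2, a repressor of the clock, and -2.56 ± 0.61 (adjusted p = 0.0489) for Arntl, its activator. The third LC control also stood nearer to the LA controls than to its own group for some genes. Cry2, another clock repressor, read 57.6, 60.3 and 32 CPM in the LC controls and 30, 30.4 and 30.3 in the LA controls. Mylk4, a myosin light chain kinase, read 436, 468 and 241 CPM in the LC and 244, 233 and 223 CPM in the LA controls. That library does not enter the lamin difference other than through the shared gene filter, scaling factors and estimate of spread.

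Between the lamin effects, 3350 of 17876 genes differed at an adjusted p under 0.05 (18.7%). Of these, 1581 had a lamin difference above 0 (8.84% of tested genes) and 1769 a difference below 0 (9.9%). Differences of at least 2-fold were found for 189 genes above and 536 below 0. The median over all tested genes was -0.0128 on the log2 scale. In most called genes both effects had 1 direction and the lamin C effect was the larger: 1320 of the 1581 and 1305 of the 1769. The lamin A effect was the larger in the same direction for 13 and 11, and the effects had opposite signs for 248 and 453. Called on their own, 9662 genes (54.1%) changed with lamin C and 5330 (29.8%) with lamin A. The split of calls depended on scaling. With plain library totals in place of TMM factors the median of all genes moved to -0.124, and 924 genes were called above and 2749 below 0, so that 25.2% of calls lay above 0 in place of 47.2%. Per-gene log2 values below are relative to the TMM scaling. On the first principal component of the 12 libraries (54.1% of variance), shRNA-labelled hearts lay between -44.9 and -32, lamin A hearts between 6.46 and 19.6 and lamin C hearts between 57.7 and 76.

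**Figure D2:**
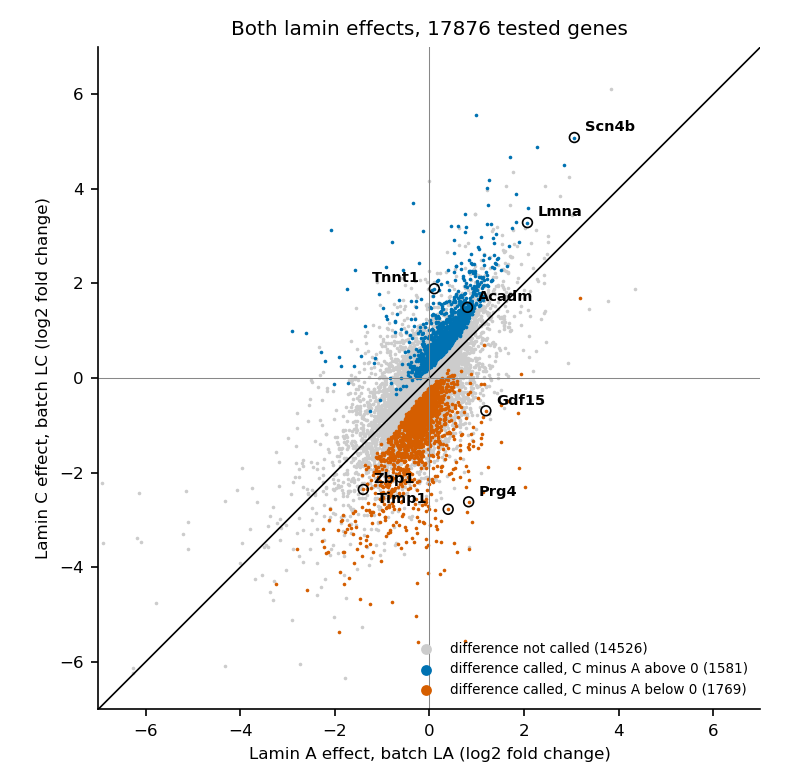
Lamin A effect (x axis) against lamin C effect (y axis), both log2 fold changes from the shRNA-labelled hearts of their own batch, for 17876 tested genes; 8 genes lie outside the axes. The line marks equal effects. Blue and orange points are the 1581 and 1769 genes with a called lamin difference above and below 0, and 8 genes named in the text are circled.

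The gene lists showed 2 broad directions. The sarcomere, ion channel, calcium handling, fatty acid, respiratory chain and citric acid cycle lists had positive medians in both lamin effects, larger for lamin C. The matrix, TGF-beta, fetal gene, chemokine, complement, interferon and integrated stress response lists had negative medians in both, nearer to 0 for lamin A. The unfolded protein response list had medians on opposite sides of 0, at -0.38 for lamin C and 0.17 for lamin A. The tubulin list did too, at -0.38 and 0.04. With plain library totals the median lamin A effect over all tested genes was -0.205, against -0.00293 with TMM factors. The side of 0 of these 2 lamin A medians therefore rests on the scaling. The nuclear lamina list lay near 0 in both. The sign of a list's median lamin difference was the same in every alternative processing for 32 of 40 lists. The other 8 were nuclear lamina, ERK targets, muscle ligases and autophagy, and 5 cell type lists: atrial, endothelial, erythroid, adipocyte and mesothelial.

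**Figure D3:**
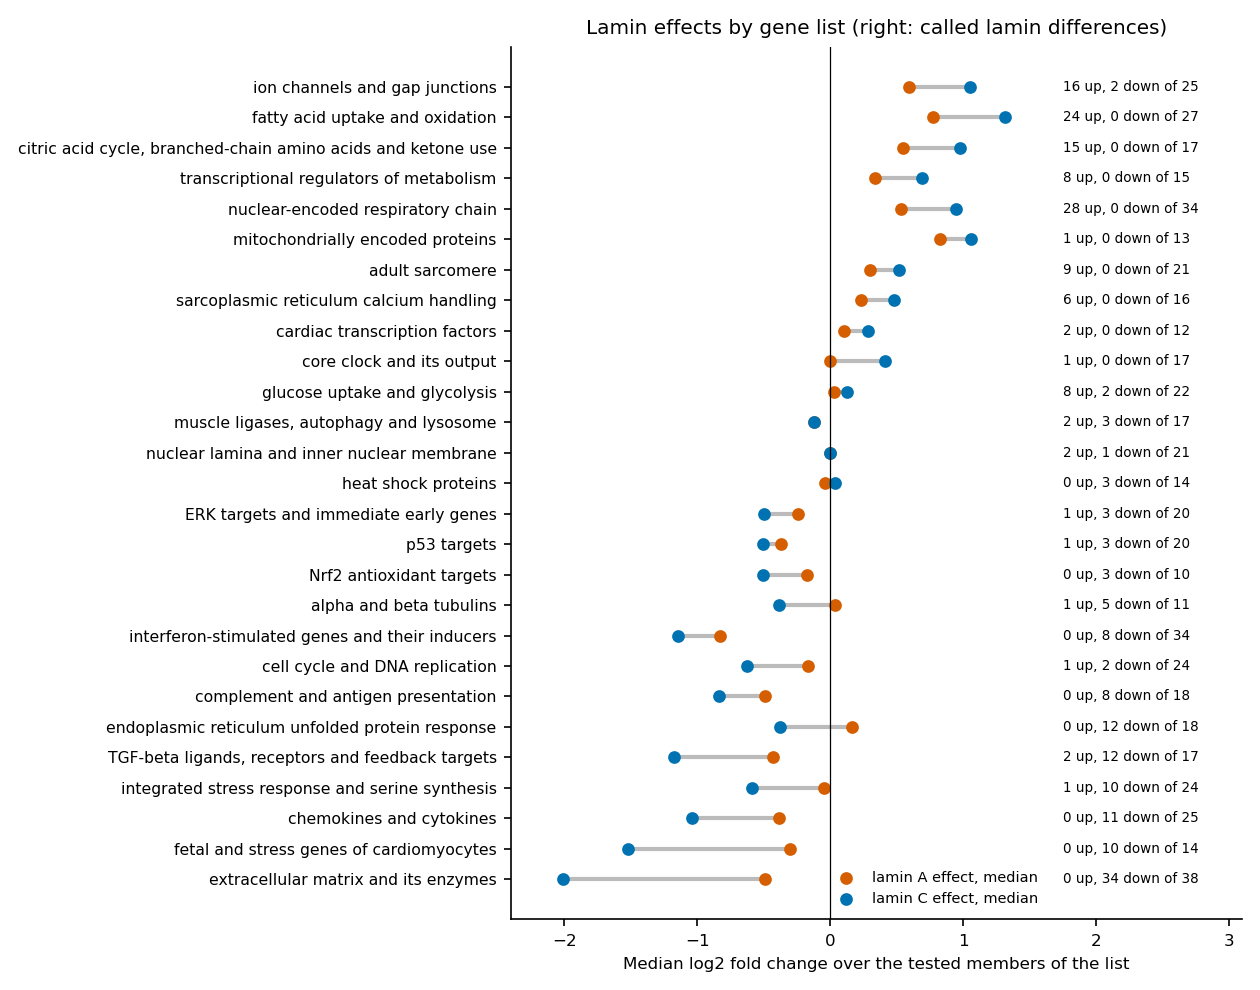
Median log2 lamin A effect (orange) and lamin C effect (blue) over the tested members of 27 gene lists, ordered by the median lamin difference. Numbers at the right count the members with a called lamin difference above 0 (up) and below 0 (down); 34 of 38 matrix genes lie below and 24 of 27 fatty acid genes above.

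Extracellular matrix genes had the largest median lamin difference of the 40 lists. Of 38 tested matrix genes and matrix enzymes, 34 had a called lamin difference below 0 and none above 0, against a background of 9.9% of all tested genes below. Their median was -1.46 for the difference, -2.01 for the lamin C effect and -0.49 for the lamin A effect. Taken singly, 37 of 38 fell with lamin C (28.4% of all tested genes did) and 21 of 38 with lamin A (13.7%). Timp1, an inhibitor of matrix metalloproteases, read 118, 84.3 and 73.9 CPM in LC shRNA-labelled hearts and 16.6, 9.64 and 14.4 with lamin C. In batch LA it read 75, 87.2 and 92.8 in shRNA-labelled hearts and 98.9, 111 and 126 with lamin A. Controls read 1.27 to 2.36. Lamin C libraries were all below the shRNA-labelled libraries of their batch, and lamin A libraries were all above theirs. The log2 difference was -3.17 ± 0.25 (adjusted p = 5.51e-07), with a lamin C effect of -2.78 and a lamin A effect of 0.40 that did not pass the test (adjusted p = 0.0812).

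Lox, which cross-links collagen, read 237, 212 and 217 CPM and fell to 23, 10.5 and 22 with lamin C. In batch LA it went from 258, 195 and 224 to 148, 129 and 172 CPM with lamin A, against 3.75 to 7.34 in controls. Both lamin groups lay below their own shRNA-labelled group without overlap, and the log2 difference was -2.99 ± 0.28 (adjusted p = 3.6e-06). Tnc, a matrix glycoprotein of injured tissue, read 64.5, 92 and 22.8 CPM without and 17.7, 7.97 and 14.8 CPM with lamin C. It varied between libraries in both shRNA-labelled groups: those of batch LA read 51.4, 95.2 and 89.1 CPM, and lamin A hearts 148, 136 and 137. The log2 effect was -2.16 ± 0.36 with lamin C and 0.84 ± 0.32 with lamin A, and the adjusted p of the difference was 0.000283. The lamin A effect on Tnc did not pass the test. Spp1 (osteopontin), a secreted matrix and cytokine-like protein, differed by -2.69 ± 0.44 (adjusted p = 0.000385), with 7.16, 2.46 and 5.15 CPM in lamin C and 20.3, 21 and 27.4 in lamin A hearts. Col16a1, a fibril-associated collagen, fell in both, to 40.2, 26.9 and 32.4 CPM from 135, 137 and 125 with lamin C and to 83.6, 71.2 and 93.2 CPM from 123, 126 and 137 with lamin A, and the difference was -1.36 ± 0.15 (adjusted p = 1.22e-05). The 4 matrix genes with no called difference were Col5a3 (-0.70), Col11a1 (-0.60), Thbs2 (-0.02) and Eln (-0.75), named here because they complete the count.

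TGF-beta genes followed the same direction. TGF-beta is the main growth factor that drives fibroblasts to make matrix, and latent binding proteins hold it in store outside the cell. Of 17 tested ligands, receptors, binding proteins and feedback targets, 12 had a called difference below 0 and 2 above, Tgfbr3 (0.48) and Ltbp1 (0.34). Over all tested genes 9.9% were called below and 8.84% above 0. Ltbp2, a matrix protein of the latent binding family, went from 373, 357 and 374 to 57.8, 18.9 and 42.2 CPM with lamin C. In batch LA shRNA-labelled hearts read 374, 307 and 377 CPM, the log2 lamin A effect was -0.83 ± 0.24 (adjusted p = 0.0132), and controls read 3.99 to 7.22 CPM. The log2 difference was -2.39 ± 0.35 (adjusted p = 0.000125). Inhba, which codes for the activin A subunit, differed by -1.84 ± 0.24 (adjusted p = 5.05e-05), and its lamin A effect was 0.18 (adjusted p = 0.44).

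Genes outside the lists were among the largest differences below 0. Prg4 (lubricin) is described with the opposite effects below. Chil1, a secreted chitinase-like protein of inflamed tissue, had the lowest difference of the genes named for size, -3.46 ± 0.76 (adjusted p = 0.00343). It went from 9.04, 5.55 and 25.7 to 0.433, 0.191 and 0.357 CPM with lamin C and from 5.95, 5.28 and 5.96 to 1.07, 0.882 and 2.54 CPM with lamin A. In the third of the LC shRNA-labelled libraries it stood above all others. Serpina3n, an acute-phase protease inhibitor, differed by -3.01 ± 0.37 (adjusted p = 3.28e-05), with 65.7, 32.4 and 53.7 CPM in lamin C hearts, 208, 257 and 333 in lamin A hearts and 3.72 to 8.15 in controls. Gpr39, a zinc-sensing receptor, differed by -2.81 ± 0.43 (adjusted p = 0.000183). Its locus overlaps Lypd1, and no source used here states whether reads were counted by strand, so its value and those of other overlapping genes are uncertain.

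**Figure D4:**
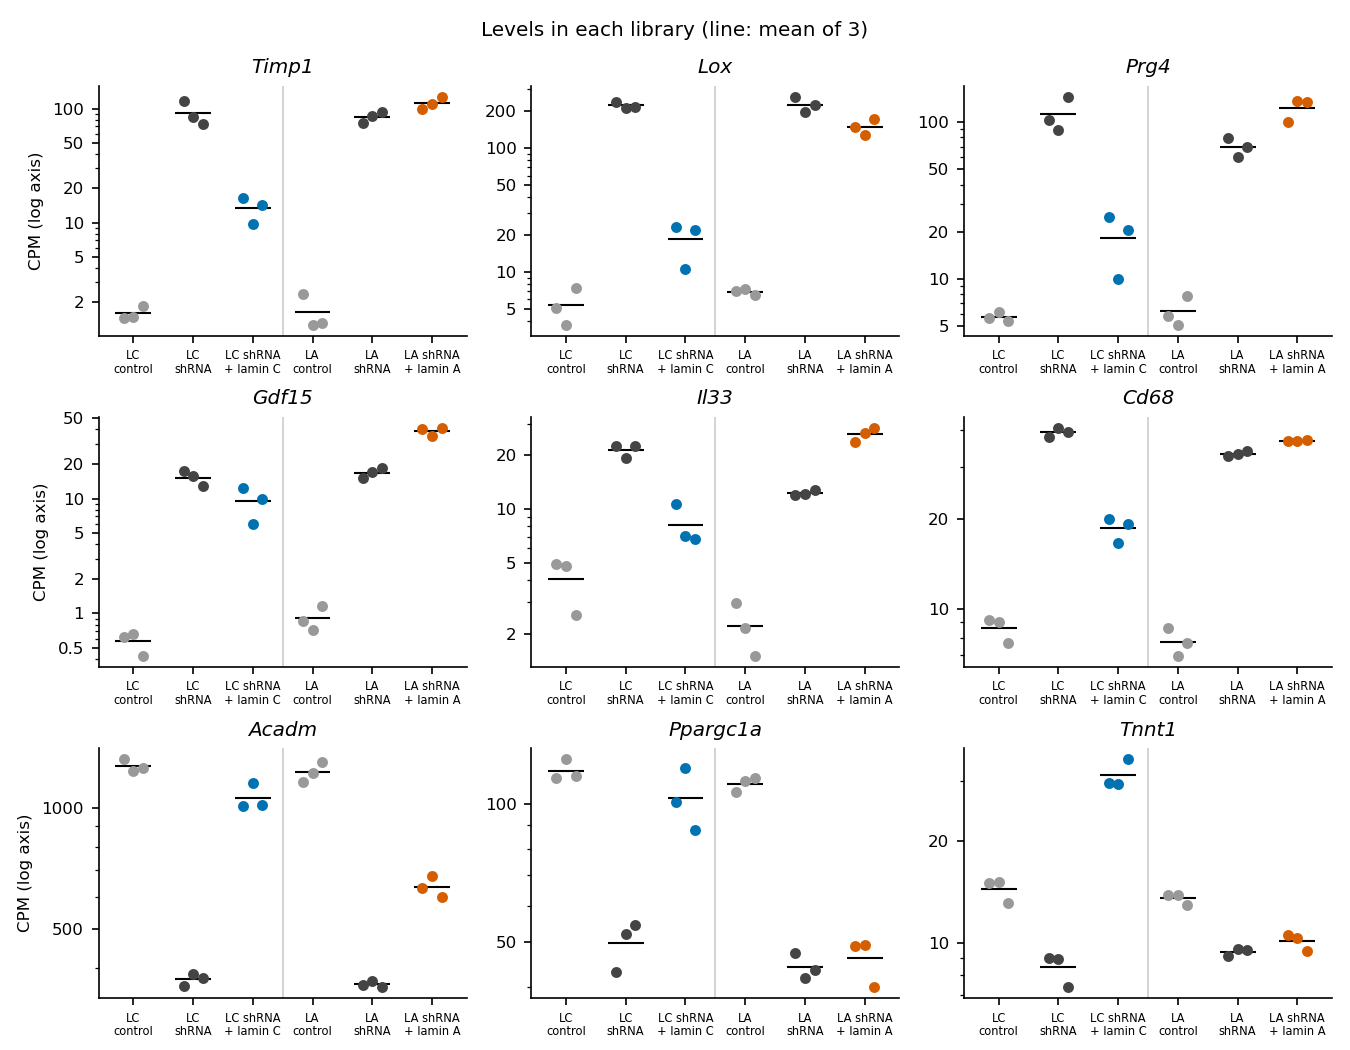
Level in CPM (log axes) of 9 genes in each of 18 libraries, by batch and label; points are libraries and lines are means of 3. Timp1, Lox, Prg4, Gdf15, Il33 and Cd68 lie lower with lamin C than with lamin A, and Acadm, Ppargc1a and Tnnt1 lie higher.

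Markers of non-muscle cells were read beside these genes. In bulk tissue, fewer cells of a type and less RNA per cell cannot be told apart. Of 10 fibroblast markers, 7 had a called lamin difference below 0 and none above, against 9.9% of all tested genes below. Col1a1 is also on the matrix list. The median of the 10 markers was -0.73. Their summed level ranged from 5250 to 5510 CPM in LC shRNA-labelled and 2610 to 3350 CPM in lamin C hearts. It ranged from 5020 to 5560 CPM in LA shRNA-labelled and 4190 to 4760 CPM in lamin A hearts, against 2180 to 2620 CPM in controls. The fibroblast markers thus moved with the matrix genes, and their part in the matrix result was not tested. Mfap5, a microfibril protein, went from 346, 287 and 272 to 80, 54.9 and 65.9 CPM with lamin C and from 306, 275 and 275 to 219, 181 and 264 CPM with lamin A, a log2 difference of -1.81 ± 0.19 (adjusted p = 1.02e-05). Pi16, a marker of adventitial fibroblasts, differed by -1.25 ± 0.17 (adjusted p = 8.32e-05), and Lum (lumican) by -0.97 ± 0.14 (adjusted p = 0.000142).

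Macrophage and monocyte markers showed 11 of 14 called below 0, against 9.9% of all tested genes, with a median of -0.92. Their summed level was 1690 to 1880 CPM in LC shRNA-labelled, 771 to 920 in lamin C, 1630 to 1780 in LA shRNA-labelled and 1440 to 1560 CPM in lamin A hearts, against 443 to 546 in controls. Cd68, a lysosomal protein of macrophages, went from 37.7, 40.4 and 39.3 to 20.1, 16.6 and 19.2 CPM with lamin C. In batch LA it went from 32.5, 33 and 33.8 to 36.6, 36.5 and 36.9 CPM. Lamin C libraries lay below, and lamin A libraries just above, the shRNA-labelled group of their batch. The lamin A effect on Cd68 did not pass the test (adjusted p = 0.149). The log2 difference was -1.22 ± 0.11 (adjusted p = 1.76e-06). C1qa, a subunit of complement C1q made by macrophages, read 96.4, 87.2 and 93.4 CPM in lamin C and 155, 175 and 159 in lamin A hearts, a difference of -0.93 ± 0.09 (adjusted p = 3.6e-06). C1qc differed by -0.91 ± 0.09 (adjusted p = 4.85e-06). Of the 12 T and natural killer cell markers and the 7 tested B cell markers, none had a called difference. Only 5 of the 12 and 3 of the 7 reached a mean of 1 CPM in any of the 4 groups. The lack of calls among such low genes therefore says little about these cells. Among 5 tested neutrophil and mast cell markers, 1 was called, Csf3r, the receptor for granulocyte colony-stimulating factor, at -1.11 ± 0.22 (adjusted p = 0.00159). None of 10 endothelial markers was called, and 8 of the 10 rose with each lamin (25.7% of all tested genes rose with lamin C and 16.1% with lamin A).

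Complement genes with a called difference were 8 of 18 in the complement and antigen presentation list, all below 0. Over all tested genes 9.9% were called below 0. The 8 are complement components or receptors. Among them C5ar1, a receptor for the C5a fragment, read 26.9, 24.4 and 27.3 CPM without and 13.6, 13.1 and 13.5 with lamin C. It read 21, 23.9 and 25.6 without and 24.1, 33.4 and 29.2 CPM with lamin A, a log2 difference of -1.27 ± 0.16 (adjusted p = 5.05e-05). The lamin A effect on C5ar1 did not pass the test (adjusted p = 0.0549). C3ar1 differed by -1.11 ± 0.16 (adjusted p = 0.000123) and C1s1, a protease of the first complement complex, by -0.71 ± 0.13 (adjusted p = 0.000909). None of the 9 antigen presentation genes (the H2 genes, Cd74, B2m, Tap1 and Tap2) was called.

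Chemokines and cytokines had 11 of 25 called below 0 and none above, against 9.9% of all tested genes below. The median was -0.80. Osmr, the oncostatin M receptor subunit, fell by 0.94 with lamin C on the log2 scale and stood at 0.09 with lamin A (adjusted p = 0.447), a difference of -1.02 ± 0.11 (adjusted p = 1.21e-05). Ccl9, a macrophage chemokine, went from 28.9, 21.5 and 24.2 to 15.9, 17.7 and 14.8 CPM with lamin C and from 23.7, 24.4 and 23.7 to 31.1, 39.8 and 34.1 CPM with lamin A. It fell with 1 lamin and rose with the other, and the difference was -1.17 ± 0.15 (adjusted p = 5.27e-05).

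Interferon-stimulated genes fell with both lamins. Of 34 tested, 31 fell with lamin C and 32 with lamin A (28.4% and 13.7% of all tested genes did). The medians were -1.15 and -0.83. The lamin difference was called for 8, all below 0, against 9.9% of all genes. Without the second of the LA shRNA-labelled libraries it was called for 15. Ifi27l2a read 32.5, 33.6 and 40 CPM with lamin C and 70.6, 66.4 and 83.5 CPM with lamin A, against 15.3 to 24.4 in controls and a log2 difference of -1.13 ± 0.21 (adjusted p = 0.00108). Zbp1, a sensor of unusual nucleic acids, fell by 2.36 with lamin C and 1.40 with lamin A, a difference of -0.96 ± 0.21 (adjusted p = 0.00367). Oasl2, an oligoadenylate synthetase-like gene, differed by -0.74 ± 0.15 (adjusted p = 0.0022).

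Fetal and stress genes of heart muscle cells had 10 of 14 members called below 0 (9.9% of all tested genes were) and none above. Their median was -1.52 for lamin C and -0.30 for lamin A. Ankrd1, a stretch-responsive repeat protein, went from 5327, 5167 and 6209 to 2412, 1358 and 1965 CPM with lamin C. In batch LA it went from 5920, 5519 and 5359 to 4737, 5007 and 5515 CPM. Controls read 642 to 1165 CPM. The lamin A libraries overlapped their shRNA-labelled group, and the log2 difference was -1.40 ± 0.27 (adjusted p = 0.00125). Nmrk2, a muscle kinase of the nicotinamide riboside route to NAD, read 30, 21.5 and 29.1 CPM with lamin C and 164, 152 and 184 with lamin A, against 1.7 to 7.27 in controls. Its difference was -2.47 ± 0.35 (adjusted p = 0.000104), and its locus overlaps Atcayos. Fhl1, a four-and-a-half LIM domain protein, fell with both lamins, to 171, 148 and 154 CPM from 622, 550 and 628 and to 325, 305 and 394 CPM from 760, 623 and 657, and the difference was -0.93 ± 0.12 (adjusted p = 6.1e-05).

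Adult sarcomere genes had 9 of 21 called above 0 and none below, against 8.84% of all genes above. With plain library totals 5 were called above 0. The median was 0.52 for lamin C and 0.30 for lamin A. Tnni3, the adult cardiac inhibitory troponin, rose from 1132, 1207 and 952 to 3119, 3400 and 3047 CPM with lamin C and from 1067, 1197 and 1076 to 1908, 2136 and 1957 CPM with lamin A, against 3543 to 4102 in controls. Neither lamin group reached the controls' range, and the log2 difference was 0.69 ± 0.12 (adjusted p = 0.000401). The ventricular light chains Myl2 and Myl3 differed by 0.54 ± 0.08 (adjusted p = 0.00022) and 0.43 ± 0.10 (adjusted p = 0.00613). Larger differences were found outside the list, in genes named for size alone. Tnnt1, the slow skeletal troponin T, went from 9.02, 8.91 and 7.41 to 29.6, 29.5 and 34.8 CPM with lamin C, above the 12.9 to 15.1 CPM of all controls. With lamin A it read 10.5, 10.3 and 9.44 CPM against 9.13, 9.57 and 9.51, and the log2 difference was 1.79 ± 0.13 (adjusted p = 3.18e-07). Tmod4, which caps thin filaments, differed by 1.68 ± 0.27 (adjusted p = 0.000303). Mylk4 went from 12.5, 21.5 and 11.4 to 236, 227 and 211 CPM with lamin C and from 14.1, 16.4 and 17.9 to 69.7, 61.6 and 42.1 CPM with lamin A, a difference of 2.06 ± 0.32 (adjusted p = 0.000244).

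Ion channel genes had 16 of 25 called above and 2 below 0, against 8.84% and 9.9% of all tested genes. The median of the 25 was 1.05 for the lamin C and 0.60 for the lamin A effect. Kcnd3, the Kv4.3 subunit of the transient outward potassium current, went from 7.13, 8 and 6.78 to 15.3, 16 and 14.9 CPM with lamin C. It went from 8.35, 7.55 and 8.14 to 9.73, 8.95 and 8.61 CPM with lamin A, and controls read 17.3 to 20.3, with a log2 difference of 0.89 ± 0.12 (adjusted p = 5.49e-05). Kcnj5, a subunit of the acetylcholine-gated potassium channel, rose by 0.64 with lamin C and stood at -0.01 with lamin A (adjusted p = 0.942), a difference of 0.65 ± 0.09 (adjusted p = 0.00013). Abcc9, the sulphonylurea receptor of cardiac potassium channels, differed by 0.75 ± 0.12 (adjusted p = 0.000258). Below 0 lay, among others, Kcne1 (-0.99), a subunit of the slow delayed rectifier.

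Several of the largest differences above 0 were in membrane proteins of low level in shRNA-labelled hearts. Naming required a mean of 5 CPM in any 1 of the 4 groups, and Clcn1 and Cngb3 passed only through their lamin C level. Their low start therefore comes in part from how they were chosen, and is not read as a shared trait. Scn4b, a beta subunit of the sodium channel, went from 1.31, 2.29 and 0.586 to 42.8, 49.6 and 48.6 CPM with lamin C. In batch LA it went from 0.755, 1.76 and 1.46 to 11.9, 14.3 and 7.22 CPM. Lamin C libraries lay above all controls, which read 16.6 to 37.4 CPM. The log2 difference was 2.02 ± 0.54 (adjusted p = 0.0125). Clcn1, a chloride channel of skeletal muscle, had the highest difference of the genes named for size, 2.62 ± 0.62 (adjusted p = 0.00583), with 5.5, 6.44 and 6.17 CPM in lamin C and 2.48, 1.74 and 1.3 in lamin A hearts. Its shRNA-labelled libraries read 0.104, 0.373 and 0.153 CPM in batch LC and 0.495, 0.429 and 0.209 in batch LA, and on log2(FPKM + 1) the difference was 0.69. Clcn1 overlaps Fam131b. Cngb3, a cyclic nucleotide-gated channel subunit, differed by 2.33 ± 0.32 (adjusted p = 8.24e-05). It read 6.69, 6.12 and 4.92 CPM in lamin C and 1.73, 2.08 and 1.47 in lamin A hearts. Its shRNA-labelled means were 0.69 CPM in batch LC and 1.04 in batch LA, and its difference ranged from 0.79 to 2.51 over the alternatives. Lgi1, a secreted synaptic protein, and Efnb3, a membrane-bound ephrin, differed by 1.89 ± 0.38 (adjusted p = 0.00173) and 1.80 ± 0.19 (adjusted p = 1.02e-05).

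Calcium handling genes of the sarcoplasmic reticulum had 6 of 16 called above 0 and none below, against 8.84% of all tested genes above. Pln (phospholamban), the inhibitor of the calcium pump, rose from 2093, 2358 and 2021 to 5303, 6085 and 5536 CPM with lamin C. In batch LA it rose from 2309, 2188 and 2140 to 3428, 3877 and 3443 CPM, and controls read 6862 to 7365. Both rises were without overlap, and the log2 difference was 0.69 ± 0.10 (adjusted p = 8.29e-05). Jph2, which holds the reticulum close to the cell membrane, differed by 0.53 ± 0.09 (adjusted p = 0.000474), and Hrc, a calcium-binding protein of the reticulum, by 0.94 ± 0.20 (adjusted p = 0.00223).

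Fatty acid uptake and oxidation genes rose with both lamins, all 27 of 27 in each batch. Of all tested genes, 25.7% rose with lamin C and 16.1% with lamin A. The lamin difference was called above 0 for 24 of 27, against 8.84% of all tested genes. The 27 values ranged from 0.25 to 0.77, with a median of 0.57. Median effects were 1.31 for lamin C and 0.77 for lamin A. Acadm, the medium-chain acyl-CoA dehydrogenase, went from 362, 387 and 378 to 1009, 1154 and 1015 CPM with lamin C. It went from 363, 372 and 360 to 633, 677 and 602 CPM with lamin A, against 1158 to 1319 in controls, and the difference was 0.69 ± 0.09 (adjusted p = 4.39e-05). Crat, which moves acetyl groups onto carnitine, differed by 0.64 ± 0.10 (adjusted p = 0.000154), and Slc27a1, a fatty acid transporter, by 0.69 ± 0.11 (adjusted p = 0.00028). The genes without a called difference were Cd36 (0.26), Fabp3 (0.25) and Cpt1b (0.63).

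Nuclear-encoded respiratory chain genes rose with both lamins in 34 of 34 cases, by medians of 0.94 and 0.53. The shares over all tested genes were 25.7% and 16.1%. The lamin difference was called above 0 for 28, against 8.84% of all tested genes, and the 34 values ranged from 0.21 to 0.56. Sdha, a catalytic subunit of complex II, went from 613, 672 and 567 to 1334, 1485 and 1330 CPM with lamin C and from 643, 661 and 635 to 983, 1039 and 942 CPM with lamin A, a difference of 0.55 ± 0.09 (adjusted p = 0.00031). Atp5a1, of the ATP synthase, differed by 0.46 ± 0.08 (adjusted p = 0.000449). Ndufs1, of complex I, differed by 0.54 ± 0.10 (adjusted p = 0.000611), and it overlaps Eef1b2. Of 17 genes of the citric acid cycle and of branched-chain amino acid and ketone use, 15 were called above 0 and none below. Bckdha and Bckdhb, subunits of the branched-chain keto acid dehydrogenase, differed by 0.57 ± 0.09 (adjusted p = 0.000369) and 0.75 ± 0.12 (adjusted p = 0.000356), and Idh2, the mitochondrial isocitrate dehydrogenase, by 0.73 ± 0.12 (adjusted p = 0.000397).

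Regulators of these metabolic genes had 8 of 15 called above 0 and none below, against 8.84% of all tested genes above. The count was 4 with plain library totals, without the first of the LC shRNA-labelled libraries or without the third of those of batch LA, and 5 without the third of the LC shRNA-labelled, the second or the third of the lamin C, or the third of the lamin A libraries. Ppargc1a (PGC-1alpha), a coactivator of mitochondrial genes, read 43.1, 52.2 and 54.5 CPM in LC shRNA-labelled hearts and 101, 120 and 87.6 with lamin C. In batch LA it read 47.4, 41.8 and 43.5 CPM, and 49.2, 49.4 and 40.1 with lamin A. Lamin C libraries overlapped the 106 to 125 CPM of controls, and lamin A libraries overlapped their shRNA-labelled group. The log2 difference was 0.98 ± 0.15 (adjusted p = 0.00017). Perm1, a muscle regulator induced by PGC-1alpha, differed by 0.67 ± 0.11 (adjusted p = 0.000289) and Esrrg, an estrogen-related receptor, by 0.47 ± 0.10 (adjusted p = 0.00215). The glucose list was split, with 8 of 22 called above and 2 below 0, against 8.84% and 9.9% of all tested genes. Those above included Eno3, the muscle enolase (0.72 ± 0.11, adjusted p = 0.000147), Pfkm, the muscle phosphofructokinase (0.51 ± 0.09, adjusted p = 0.000857), and Ldhb (0.57 ± 0.09, adjusted p = 0.00024). Those below were Pfkp (-0.64), the platelet phosphofructokinase, and Eno1 (-0.30), the ubiquitous enolase.

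Mitochondrially encoded genes were read both singly and as a share of each library. In batch LC the share went from 14.4% ± 1.35 (SD, n = 3) in shRNA-labelled to 24% ± 0.797 in lamin C hearts. In batch LA it went from 14.4% ± 0.562 to 21.3% ± 1.16 with lamin A, against 25.4% and 26.7% in the controls of LC and LA. The difference between these changes was 2.68 percentage points, with p = 0.105 by a two-sided exact permutation test over 400 arrangements. The smallest p of such a test, 0.005, needs the shRNA-labelled groups to lie apart too. Both averaged 14.4%, so that p was out of reach here. All lamin C libraries (23.19%, 24.78% and 24.13%) lay above all lamin A libraries (20.31%, 22.58% and 21.08%). The difference did not pass the threshold, and for this reason the test cannot decide whether the shares differ. Without the second LC shRNA-labelled library the difference was 3.27 points (exact permutation p = 0.045). Of 13 mitochondrially encoded proteins, 12 rose with each lamin (25.7% of all tested genes did with lamin C and 16.1% with lamin A). A called lamin difference was found for 1, against 18.7% of all tested genes: mt-Atp6 (1.89 ± 0.40, adjusted p = 0.00256). Its lamin A libraries read 476, 1288 and 614 CPM and it overlaps mt-Co3, so its value is uncertain. The count of 1 rested on the libraries and settings used: it was 7 without the second of the LC shRNA-labelled libraries, 4 without the second of the lamin A libraries, 3 without the third of the LA shRNA-labelled libraries, 2 without the first of the lamin C libraries, 4 with DESeq2 and 10 with no filter.

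Endoplasmic reticulum chaperone genes mostly fell with lamin C, and on the TMM scaling more of them rose than fell with lamin A. The unfolded protein response raises chaperones and folding enzymes when unfolded proteins build up in the reticulum, through the factors ATF6 and XBP1, which act at promoter elements named ERSE. The integrated stress response acts through ATF4 on amino acid and one-carbon genes. Before the values, the ERSE matches are shown, because they show the element's letters in members of the list. The ERSE motif (CCAAT, then 9 bases of any kind, then CCACG) was searched on both strands in the 250 bases before each start in the RefSeq promoter table (GRCm38.p6). It was found in 8 of the 16 list genes with an entry (50%), and in 35 of 27025 genes in all (0.13%). Capitals mark the fixed letters of the motif, and each match is printed in the motif's orientation, 5′ to 3′.
Hspa5, chr2:34772025-34772043, plus strand: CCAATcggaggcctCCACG
Hsp90b1, chr10:86705533-86705551, plus strand: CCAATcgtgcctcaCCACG
Hsp90b1, chr10:86705638-86705656, minus strand: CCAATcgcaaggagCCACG
Calr, chr8:84847075-84847093, plus strand: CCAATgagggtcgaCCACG
Canx, chr11:50325800-50325818, minus strand: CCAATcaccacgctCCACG
Pdia6, chr12:17266491-17266509, plus strand: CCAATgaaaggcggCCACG
Creld2, chr15:88819520-88819538, minus strand: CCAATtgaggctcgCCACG
Dnajc3, chr14:118937827-118937845, plus strand: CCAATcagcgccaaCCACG
Syvn1, chr19:6046532-6046550, plus strand: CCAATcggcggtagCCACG

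The whole 250-base promoter of Creld2, an ER stress-induced folding factor whose lamin effects are both called and opposite, is given as the setting of such a match, with the match in capitals as it lies on the gene's own (plus) strand.
Creld2, chr15:88819396-88819645: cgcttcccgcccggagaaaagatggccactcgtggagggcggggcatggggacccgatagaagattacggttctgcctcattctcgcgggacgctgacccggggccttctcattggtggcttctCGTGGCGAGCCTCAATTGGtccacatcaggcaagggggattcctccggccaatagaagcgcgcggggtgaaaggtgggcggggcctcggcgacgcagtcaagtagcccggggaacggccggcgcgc

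Of the 18 unfolded protein response genes, 12 had a called lamin difference below 0, against 9.9% of all tested genes, and none above. The median was -0.52. With lamin C, 12 fell and 1 rose (28.4% and 25.7% of all tested genes did). With lamin A, 7 rose and 2 fell (16.1% and 13.7% of all tested genes did). Among the 8 genes with an ERSE match, 6 were called below 0 (median -0.50), and among the other 10, with no match or no promoter entry, 6 were called below 0 (median -0.52). Creld2 read 18.5, 16 and 18.4 CPM in LC shRNA-labelled hearts and fell to 10.6, 10.9 and 11 with lamin C. It rose from 16.4, 19.9 and 19 to 21.2, 29.2 and 26.8 CPM with lamin A, above the 9.97 to 14.8 CPM of controls. The log2 effects were -0.70 ± 0.12 and 0.48 ± 0.11 and the difference -1.18 ± 0.16 (adjusted p = 6.85e-05). Sdf2l1, a cofactor of the chaperone BiP, fell to 4.46, 4.48 and 3.69 CPM from 8.73, 7.23 and 6.5 with lamin C and rose to 10.6, 16.2 and 12.5 from 7.36, 9.95 and 8.53 with lamin A, a difference of -1.44 ± 0.25 (adjusted p = 0.000489). Pdia3, a disulphide isomerase, fell by 0.61 with lamin C and stood at 0.13 with lamin A (adjusted p = 0.291), and the difference was -0.75 ± 0.13 (adjusted p = 0.000491). Hspa5 (BiP) itself, shown for its ERSE match, differed by -0.63 ± 0.16 (adjusted p = 0.0108), with a lamin A effect of 0.51 ± 0.12 (adjusted p = 0.00221) and a lamin C effect of -0.12 (adjusted p = 0.42).

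Integrated stress response and serine synthesis genes had 10 of 24 called below 0, against 9.9% of all tested genes. Above 0 lay 1, Vldlr (0.51), the very low density lipoprotein receptor. Gdf15, a circulating stress cytokine, read 17.2, 15.6 and 12.9 CPM in LC shRNA-labelled hearts and 12.4, 6.03 and 10 with lamin C. In batch LA it rose from 15.1, 17 and 18.3 to 39.9, 34.7 and 40.8 CPM with lamin A, while controls read 0.43 to 1.15. All lamin A libraries were above, and all lamin C libraries below, the shRNA-labelled libraries of their batch. The log2 lamin C effect was -0.69 ± 0.17, the lamin A effect 1.19 ± 0.16 and the difference -1.89 ± 0.24 (adjusted p = 3.84e-05). Nupr1, a stress-induced chromatin protein, fell with both lamins, by 2.35 and 0.79 on the log2 scale, a difference of -1.57 ± 0.21 (adjusted p = 6.5e-05). Mthfd2, a mitochondrial folate enzyme, read 6.53, 5 and 5.3 CPM with lamin C and 15.6, 15.2 and 17 with lamin A, a difference of -1.51 ± 0.19 (adjusted p = 4e-05). The ATF4 core TGATGNAA, searched in the same windows and on both strands, was present in 6 of 22 list genes with an entry (27.3%) and in 3.91% of all genes. Those 6 were Asns, Chac1, Nupr1, Pycr1, Slc7a11 and Vldlr. No gene of either list held both motifs.

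**Figure D5:**
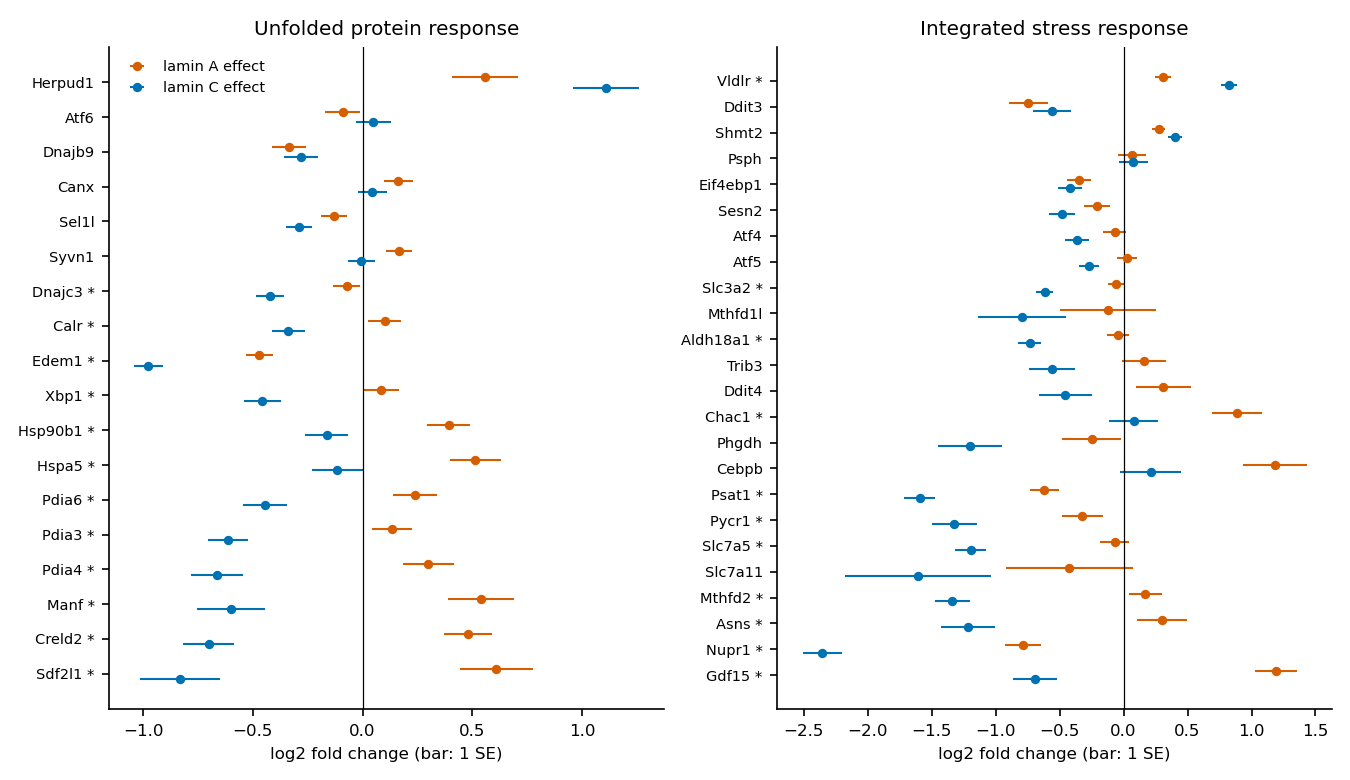
Lamin A effect (orange) and lamin C effect (blue) for 18 unfolded protein response and 24 integrated stress response genes, as log2 fold changes with bars of 1 SE; a star marks a called lamin difference. Sdf2l1, Creld2, Manf and Gdf15 lie on opposite sides of 0.

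Opposite effects were rare. Among 10941 protein-coding genes whose mean reached 5 CPM in 1 or more of the 4 groups, 3860 were called in both effects, and 39 of these in opposite directions. In 34 of the 39, the gene fell with lamin C and rose with lamin A, and in 5 the reverse held. These directions are relative to the TMM scaling. The 6 largest such differences were named, and these values chose them. Prg4 (lubricin, chromosome 1, 150449412 to 150466165), a lubricating proteoglycan, went from 104, 88.9 and 144 to 24.7, 9.97 and 20.5 CPM with lamin C. In batch LA it went from 79.3, 60.2 and 69 to 101, 136 and 134 CPM with lamin A, against 5.13 to 7.75 in controls. The log2 effects were -2.62 ± 0.23 and 0.83 ± 0.21, with a difference of -3.45 ± 0.32 (adjusted p = 3.05e-06). Prg4 overlaps Tpr. Nxpe5 (chromosome 5, 138225898 to 138253363), of which little is known, read 0.899, 0.382 and 1.01 CPM with lamin C and 5.43, 7.72 and 5.7 with lamin A, a difference of -2.77 ± 0.33 (adjusted p = 2.21e-05). Its log2 effects were -1.96 with lamin C and 0.81 with lamin A. Nxpe5 passed the level of 5 CPM only through its lamin A libraries. Its higher level there therefore comes in part from how it was chosen.

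Il33, an alarm cytokine of damaged tissue, went from 22.5, 19.3 and 22.6 to 10.6, 7.07 and 6.82 CPM with lamin C and from 12, 12.1 and 12.7 to 23.7, 26.6 and 28.2 CPM with lamin A. The shRNA-labelled groups already differed, by 0.81 ± 0.17 (adjusted p = 0.0271), and the lamin difference was -2.49 ± 0.25 (adjusted p = 7.32e-06). Cxcl14, a chemokine, fell from 27.6, 26.6 and 39.4 to 13.2, 11.4 and 14.3 CPM with lamin C and rose from 15.6, 21.3 and 26.2 to 30.3, 39.7 and 63.9 CPM with lamin A, a difference of -2.35 ± 0.32 (adjusted p = 8.29e-05). The remaining pair are retinaldehyde dehydrogenases, which make retinoic acid. Aldh1a2 read 39.4, 46.4 and 27.1 CPM without and 16.4, 13.7 and 19.4 with lamin C, and 38.1, 56.7 and 46.9 without and 75.9, 101 and 82.6 with lamin A. Controls read 5.09 to 10.2 CPM, and the difference was -2.06 ± 0.28 (adjusted p = 8.3e-05). Aldh1a3 read 3.16, 1.64 and 2.95 CPM with lamin C and 10, 11.8 and 9.02 with lamin A, a difference of -2.35 ± 0.26 (adjusted p = 1.21e-05).

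Other stress lists had few calls. Over all tested genes 18.7% were called, 8.84% above and 9.9% below 0. Of 14 heat shock genes 3 were called, all below 0: Hsp90aa1 (-0.73 ± 0.15, adjusted p = 0.00181), Hspb1 (-0.65 ± 0.16, adjusted p = 0.00705) and Hsph1 (-0.46 ± 0.14, adjusted p = 0.03). Of 20 p53 targets, 14 fell with lamin C (28.4% of all tested genes did) and 13 with lamin A (13.7%), and 4 had a called lamin difference. Cdkn1a (p21), a cell cycle inhibitor, read 34.2, 37.2 and 34.3 CPM with lamin C, from 148, 137 and 166. It read 96.8, 88.3 and 103 CPM with lamin A, from 182, 176 and 162, a difference of -1.24 ± 0.29 (adjusted p = 0.00524). Phlda3, an Akt inhibitor, differed by -0.90 ± 0.12 (adjusted p = 4.77e-05), Sesn1, a stress sensor, by 0.64 ± 0.15 (adjusted p = 0.00634), and Bax, a cell death factor, by -0.40. Nrf2 targets had 3 of 10 below 0, led by Hmox1, the haem-degrading enzyme, at -1.30 ± 0.13 (adjusted p = 5.34e-06), with Srxn1 at -0.46 and G6pdx, which overlaps Ikbkg, at -0.47. Among 20 ERK targets and immediate early genes, Egr2 (-1.49), Atf3 (-1.11) and Dusp4 (-0.97) were below and Spry2 (0.46) above 0. Without the first of the lamin C libraries 5 were below 0.

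Cell cycle genes had 3 of 24 called. Over all tested genes 18.7% were called, 8.84% above and 9.9% below 0. The lists in this paragraph are to be read beside these shares. Mcm3 (-0.53) and Mcm6 (-0.40), of the replicative helicase, were below 0. Cenpf, a kinetochore protein, was above at 1.71 ± 0.46 (adjusted p = 0.0125), with 4.44, 6.35 and 1.53 CPM in LC shRNA-labelled and 19.4, 20.4 and 18.1 in lamin C hearts. Without the third LC shRNA-labelled library, 11 of the 24 were called below 0. Of 17 clock genes, 1 was called, Cry2 (0.81 ± 0.22, adjusted p = 0.013). In a fit of the 4 groups of the contrast alone 7 were called above and 2 below 0, and with no filter 8 above and 5 below. Among 11 tubulins, 5 were below 0 and 1 above, with Tubb6 at -0.89 ± 0.13 (adjusted p = 0.000154), Tubb2a at -0.61 ± 0.13 (adjusted p = 0.00321) and Tubb5 at -0.43 ± 0.10 (adjusted p = 0.00466). The 5 became 3 without the first of the LC shRNA-labelled, the second of the lamin C, the second of the LA shRNA-labelled or the third of the lamin A libraries. Muscle ligase, autophagy and lysosome genes had 2 above and 3 below 0 of 17. The lysosomal Ctsb (-0.53) and Lamp2 (-0.27) were below, and Ulk1 (0.60), a kinase that starts autophagy, was above. The cardiac transcription factors Gata6 (0.36 ± 0.11, adjusted p = 0.0242) and Tbx5 (0.47 ± 0.14, adjusted p = 0.0223) were above 0, and the other 10 of that list were not called. The count of 2 was 0 without the first or the second of the LC shRNA-labelled libraries, 4 without the third of them, and 0 with plain library totals. Gata6 overlaps 1010001N08Rik.

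Partners of the lamins at the nuclear envelope were called about as often as other genes. Of 21 tested genes of the lamina and inner nuclear membrane other than Lmna, 3 had a called difference, against 18.7% of all tested genes. Sun1, which links the lamina to the cytoskeleton, read 42.7, 44.8 and 44.8 CPM without and 59.3, 58.1 and 55.1 with lamin C. It read 45.8, 43 and 44.3 CPM without and 46.9, 42.1 and 44.4 with lamin A, a difference of 0.38 ± 0.08 (adjusted p = 0.0021). Lbr, the lamin B receptor, differed by 0.27 ± 0.08 (adjusted p = 0.0279) and Tmem43 (LUMA), an inner membrane protein, by -0.53 ± 0.10 (adjusted p = 0.000914). Zmpste24, the prelamin A protease, was not called at -0.04.

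Remaining cell type lists gave few calls, to be read beside the 8.84% of all tested genes called above and 9.9% below 0. Among smooth muscle and pericyte markers, the pericyte genes Kcnj8 (0.32) and Rgs5 (0.25) were above 0 (2 of 10). With plain library totals 0 of the 10 were called above and 2 below 0. Dkk3 (-1.58 ± 0.31, adjusted p = 0.00138) was the 1 call among 5 tested atrial markers. The skeletal muscle markers Ckm (0.80) and Myl1 (-0.55) lay on opposite sides of 0, and Ckm, the muscle creatine kinase, is also made in heart. Among 6 Schwann cell markers 2 were called below 0, of which Ncam1, an adhesion molecule, stood at -0.91. Over the alternatives that count ranged from 0 to 3. Adipocyte, erythroid and mesothelial lists held none. The summed adipocyte markers stayed at or under 2.48 CPM, and no listed marker was at 0 in all of the 12 libraries.

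Set against the controls of each batch in place of the shRNA-labelled hearts, the lamin groups differed in 2616 genes (14.6% of those tested), 1303 above (7.29%) and 1313 below 0 (7.35%). Without the third of the LC controls the count was 2336. This comparison shares its lamin libraries with the lamin difference. Timp1 differed by -2.99 ± 0.41, Lox by -2.66 ± 0.34, Gdf15 by -1.38 ± 0.46, Acadm by 0.68 ± 0.09, Ppargc1a by 1.07 ± 0.15 and Lmna by 1.16 ± 0.12 on the log2 scale. For Gdf15 the adjusted p was 0.0496, just under the threshold. For the shRNA effect itself, 1 gene of 17876 (0.00559%) differed between the batches. At an unadjusted p under 0.05 the count was 1143, and with DESeq2 8 genes were called. Without the third of the LC controls edgeR called 47.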

How the data were processed

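Polyadenylated RNA of the mouse heart apex was sequenced in 18 directional libraries. The count values were deposited by the authors as whole numbers per gene, and the FPKM values were deposited too. Per the submitters' processing notes, the build was mm10 and the tools named, without their roles, were DESeq2 1.20.0, featureCounts 1.5.0-p3, HISAT2 2.0.5 and StringTie 1.3.3b. No source used here states strand use in counting.

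Genes passing filterByExpr (17876) were fitted with edgeR 4.0.16 in R 4.3.3, by the quasi-likelihood test with TMM factors, over all 18 libraries and 6 groups (12 residual degrees of freedom, common dispersion 0.00834). Adjusted p is Benjamini-Hochberg over all tested genes, called under 0.05. Standard errors come from the F statistic. Libraries totalled 31418657 to 41259968 counts. CPM divides by these totals after scaling with TMM factors, and 3 counts equal 0.0622 to 0.108 CPM. Between replicates the chi-square per degree of freedom was 5.98 to 39.3, so no pair agreed within sampling noise. Genes overlapping another gene, by the deposited coordinates, are named as such.

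Named genes are Lmna, the 10 largest called differences in each direction and the 6 largest opposite effects (protein-coding, group mean of 5 CPM or higher), and up to 3 called members of each of 40 lists by smallest p. Others are named to complete a count or a sequence set, or as clock genes, and were chosen after their values were seen. The contrast, members and lists were chosen with earlier results of these data known. Alternatives were DESeq2 1.42.0, other scalings and filters, limma 3.58.1 on log2(FPKM + 1) and log2(FPKM + 0.1), a replicate block and leaving out each library. On data simulated for the lamin difference (17336 genes), recovery was 49.3% for changes of 1.5-fold, 77.6% for those of 2-fold and 100% for those of 4-fold, with 6 false calls. Apart from the changed genes, simulated means were the same in all groups, and the spread followed the trend without gene-specific variation. These rates therefore need not hold for the real data. Some genes that these rules name are not reported here.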

Additional observations from a re-analysis of the deposited data

Results flagged for a closer look

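The effects of the 2 lamins differed between batches, by the test of the difference itself, for 3350 genes. The 6 genes named for called effects in opposite directions had log2 lamin differences of -2.06 (Aldh1a2), -2.35 (Aldh1a3), -2.35 (Cxcl14), -2.49 (Il33), -2.77 (Nxpe5) and -3.45 (Prg4). Lamin type, batch and Lmna level cannot be told apart in any of them. The shRNA effect differed between the batches, by the same test, for 1 gene. Groups of 3 libraries are too small for the test of single outlying libraries, which was not applied.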

How the results depend on the processing

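Calls of the lamin difference kept within 1.5 times their count under every alternative run except plain library totals, which gave 924 above and 2749 below 0. Leaving out 1 library at a time gave 1149 to 1657 above and 1329 to 1740 below 0, 8551 to 9198 calls for lamin C, 4097 to 4690 for lamin A and 1780 to 2521 for the comparison against controls. The difference between the shRNA-labelled groups was less stable: 188 genes became 345 with DESeq2, 806 with no filter, 60 with the replicate block, 125 on log2(FPKM + 0.1) and 53 to 219 when 1 library was left out (53 without LC shRNA replicate 1, 57 and 79 without LA shRNA replicates 2 and 3, 103 without LC shRNA replicate 3). The shRNA effect difference, 1 gene, became 8 with DESeq2, 247 with no filter, 0 in a fit of its own groups, 0 with the replicate block and 0 to 47 when 1 library was left out (47 without LC control replicate 3). The cause was not tested. The mitochondrial share difference ranged from 1.94 to 3.31 points.

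Same-numbered libraries of a batch deviated together with correlations of -0.026 to 0.04, so the numbers do not pair them. With the replicate block 1499 and 1637 genes were called above and below 0. Of 2304 alternative values of the 110 named genes, 72 no longer passed the threshold and 0 changed direction. The 72 belong to 13 genes, among them Chil1, Gata6, Hsph1, Kcnj8, Lbr, Myl1, Ncam1, Rgs5, Scn4b, Spry2, Srxn1 and Tbx5. Sizes moved more: for 10 of the 110 the difference moved by over 1.5-fold, as for Clcn1 (0.69 to 3.28), Chil1 (-3.83 to -1.16), Nxpe5 (-3.05 to -0.90), Cngb3 (0.79 to 2.51) and Cenpf (0.66 to 2.13), so genes named for size are ranked by the edgeR fit. Counts of listed genes called above 0 moved by over 1.5 times for mitochondrially encoded (1 to 10), clock (1 to 8), sarcomere (5 to 12), metabolic regulator (4 to 9) and cardiac transcription factor genes (0 to 4). Counts below 0 did so for cell cycle (2 to 11), interferon-stimulated (7 to 16), integrated stress response (9 to 17), ERK target (2 to 8), p53 target (2 to 6), tubulin (3 to 7), clock (0 to 5), muscle ligase and autophagy (2 to 5) and glucose genes (1 to 4). Other list counts moved by that much only where no alternative gave more than 3 calls. Depth limits the low genes most: 3 counts equal up to 0.108 CPM, so values such as those of Chil1 in controls rest on single reads.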
